A study of Mus musculus with 26 samples.

Results

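The collagen gene family was taken as every gene of the deposited count table whose symbol is Col, a number, the letter a and a number, which gave 44 genes of 55401 in the table. They were sorted by the kind of assembly their chains form: 11 encode chains of fibrillar collagens, 6 encode the type IV chains of basement membranes, and 27 encode other collagens. Liver RNA had been sequenced from male C57BL/6 mice put on a high-fat diet at 4 weeks of age and kept on it for 18 weeks. The series' design text adds cholesterol to the name of the diet, and no group on a normal diet was analysed here. The 9 libraries of the reference group come from animals that only ate the diet (untreated HFD). The 8 libraries set against them come from animals that ate it and also received UCMSC exosomes (UCMSC-Exos) by tail vein, every 72 hours for 8 weeks. Because no sham injection is named for the reference animals, an effect of the exosomes and an effect of being injected cannot be told apart. Samples of one further group, LSCR (9 in number), were not analysed here. The labels number the libraries within each group and describe no pooling of animals.

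Collagens are secreted proteins in which 3 chains wind into a triple helix. Fibrillar collagens (types I, III and V among them) are trimmed outside the cell and pack side by side into the fibrils that stiffen scar tissue, whereas type IV chains keep their ends and join into the sheet-like network of basement membranes. Other members decorate fibrils, form beaded filaments or short networks, or span the cell membrane. In the liver most fibrillar collagen comes from stellate cells and portal fibroblasts, type IV chains also come from endothelial and bile duct cells, and type XVIII is made by hepatocytes. Chains that share a trimer are often encoded side by side.

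Of the 44 genes, 33 had enough reads to be tested, and 27 of these had a lower fitted level in the UCMSC-Exos group. Among all 16238 genes tested 8649 had a lower fitted level. The family had a median log2 fold change of −0.78, against −0.02 over the 16238 genes tested in all. With 3 surrogate variables in the model the family's median was −0.15, and 3 of the 7 lower calls that follow were made. Lower expression passed the test for 7 members, the type IV chains Col4a1 and Col4a2, the multiplexin Col15a1, the fibrillar chains Col1a2 and Col5a2, the fibril-associated Col16a1 and the transmembrane Col23a1. Only Col18a1, the second multiplexin, passed it as higher. The test was the quasi-likelihood F test of edgeR on counts, with Benjamini-Hochberg adjusted p under 0.05. By the same rule 10.4% of all tested genes were lower and 9.73% were higher. One library of the treated group, UCMSC-Exos 9, stood above the untreated median for 27 of the 33 members, and the counts are therefore given with and without it. That library was set aside after its collagen values were seen. Leaving out a high treated library in itself makes falls larger, so values without UCMSC-Exos 9 are descriptions throughout. Without that library 22 members were lower and 1 was higher, where 20.6% of all 16326 genes tested were lower and 15% were higher.

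Libraries held between 32941500 and 36065100 counted reads, rounded to 6 digits, and collagen genes took from 0.154% to 0.412% of them. Untreated 3, untreated 9 and UCMSC-Exos 9 stood apart in marker genes of other cell types. In untreated 3 the 8 exocrine pancreas markers summed to 11062 CPM (reads per 1e6 reads of the scaled library), against at most 0.782 CPM in any other untreated library. In untreated 9 the 7 skeletal muscle markers summed to 10434 CPM, against at most 1.64 CPM in the untreated libraries other than 3 and 9, and the mesothelium and smooth muscle lists were also highest there, at 75.1 and 222.2 CPM. In UCMSC-Exos 9 the 8 cholangiocyte markers summed to 612.1 CPM, against 69.7 to 145.7 CPM in the 7 other treated libraries. The 11 myofibroblast and portal fibroblast markers summed to 297.1 CPM there, against at most 135.0 CPM. That library stood apart from the treated group more than from the untreated one. The untreated sums of these lists ran from 134.3 to 546.2 CPM and from 87.4 to 280.9 CPM. The 6 hepatocyte markers were abundant in every library, at 32201 CPM or more in sum. In UCMSC-Exos 9 they summed to 39149 CPM, the lowest treated value and within the untreated range of 32201 to 51625 CPM. The part of other tissue in the collagen values of untreated 3 and 9 was not tested beyond leaving those libraries out.

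Several collagen genes lie beside one another on the mm10 genome. Col4a1 (chromosome 8, 11198423 to 11312826, minus strand) and Col4a2 (chromosome 8, 11312805 to 11449287, plus strand) point away from each other and overlap by 22 bases at their starts. Col4a4 and Col4a3 lie head to head on chromosome 1 with 71 bases between them, and Col4a6 and Col4a5 lie head to head on the X chromosome with 1308 bases between them. Col3a1 and Col5a2 lie tail to tail on chromosome 1, 24.6 kb apart. Col6a2 and Col6a1 follow one another on chromosome 10, 85.2 kb apart, with Col18a1 next on the same strand. Col6a6, Col6a5 and Col6a4 form a run on chromosome 9, 27.9 and 28.8 kb apart. The counts ignored strand, so reads in the overlap of Col4a1 and Col4a2 could belong to either gene. That overlap is 0.295% of the exon bases of Col4a1.

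Sequence before the start site is shown for the 2 fibrillar genes with the most reads that have an entry, for both multiplexins because they moved in opposite directions, and for the stretch shared by Col4a3 and Col4a4. All are RefSeq sequences on GRCm38.p6, 5′ to 3′ on the gene's own strand, cut to bases that no annotated exon covers. Capitals mark 4 motifs searched on both strands, with no overlap among them in these windows. The CCAAT box is spelled as its name says. The GC box was searched as GGGCGG. The TATA box was searched as TATAAA. The SMAD element was searched as CAGACA. The windows are chr6:4505370-4505492 (plus), chr1:45311288-45311537 (plus), chr4:47207762-47208011 (plus), chr10:77166549-77166780 (minus) and chr1:82586850-82586920 (minus).
Col1a2: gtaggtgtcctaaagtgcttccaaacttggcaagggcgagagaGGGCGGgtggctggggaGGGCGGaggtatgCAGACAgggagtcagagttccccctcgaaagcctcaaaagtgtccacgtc
Col3a1: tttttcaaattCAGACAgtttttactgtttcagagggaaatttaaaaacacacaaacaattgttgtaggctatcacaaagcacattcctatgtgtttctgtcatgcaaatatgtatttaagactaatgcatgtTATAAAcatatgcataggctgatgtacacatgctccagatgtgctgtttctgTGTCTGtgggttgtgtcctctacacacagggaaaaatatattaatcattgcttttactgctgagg
Col15a1: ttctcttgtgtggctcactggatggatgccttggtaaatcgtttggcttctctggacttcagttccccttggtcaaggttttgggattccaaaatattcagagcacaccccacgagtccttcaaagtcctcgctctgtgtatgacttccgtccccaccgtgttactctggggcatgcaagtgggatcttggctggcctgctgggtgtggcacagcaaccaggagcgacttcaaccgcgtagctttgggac
Col18a1: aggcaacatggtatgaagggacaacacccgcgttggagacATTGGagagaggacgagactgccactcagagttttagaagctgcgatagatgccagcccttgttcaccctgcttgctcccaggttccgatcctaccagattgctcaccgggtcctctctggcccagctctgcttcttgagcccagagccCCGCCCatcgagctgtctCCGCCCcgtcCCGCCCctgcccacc
Col4a4: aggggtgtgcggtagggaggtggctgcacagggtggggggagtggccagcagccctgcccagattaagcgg

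In the Col1a2 window the GC boxes begin 205 and 188 bases before the start and the SMAD element 175 bases before it; a CCAAT box at 109 bases lies outside the printed stretch. The Col3a1 window has SMAD elements at 239 and 65 bases and a TATA box at 117 bases before the start. The Col18a1 window, which belongs to the outer of its 2 annotated starts, has GC boxes at 61, 43 and 33 bases and a CCAAT box at 210 bases. The Col15a1 window and the 71 bases between Col4a4 and Col4a3 hold none of these letters. Among 29 windows of 250 bases before starts of tested members, 19 held a GC box (65.5%), against 32.7% of 32851 windows over all genes. A CCAAT box was in 31.0% against 33.9%, a TATA box in 10.3% against 12.4%, and a SMAD element in 24.1% against 17.1%. The median GC content was 60.4% in the members' windows and 52.4% in all windows, and these counts are descriptions of letters, not of binding. RefSeq windows were matched for 35 of the 44 members.

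Among the fibrillar collagens, 5 chains of types I, III and V, all but Col5a3, had lower values in 7 of the 8 treated libraries than in any untreated one. Col1a1 and Col1a2 encode the 2 chains of type I collagen, the main fibril of scar tissue. Col1a1 (ENSMUSG00000001506.10, chromosome 11, 94936224 to 94953042, plus strand) ran from 132.6 CPM through a median of 263.0 to 730.2 CPM in the untreated libraries. In the treated libraries it ran from 41.3 CPM through a median of 86.0 to 440.0 CPM. The 440.0 CPM came from UCMSC-Exos 9 and the next highest treated library had 101.9 CPM, below all 9 untreated libraries. The difference of −1.29 ± 0.45 (log2, SE) missed the threshold with all 17 libraries (edgeR adjusted p = 0.0508). Without UCMSC-Exos 9 Col1a1 fell, with a log2 fold change of −1.95 ± 0.32 (SE; edgeR adjusted p = 0.000236).

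Col1a2 (ENSMUSG00000029661.16, chromosome 6, 4504814 to 4541544, plus strand) had a median of 240.6 CPM in the untreated libraries, from 108.6 to 480.2 CPM. The treated libraries had a median of 74.9 CPM, with 41.4 to 90.3 CPM in 7 of them and 348.7 CPM in UCMSC-Exos 9. The groups thus overlapped only through that library. Col1a2 fell by 1.20 ± 0.40 (log2, SE; edgeR adjusted p = 0.0446), and by 1.79 ± 0.27 without UCMSC-Exos 9. The first of these calls was lost in 14 of 17 fits that left out 1 library, with adjusted p of up to 0.0877. Per exon length, the ratio of Col1a1 to Col1a2 was 2.32 ± 0.27 (SD, n = 9) in untreated and 2.17 ± 0.15 (SD, n = 8) in treated libraries. The ratios ran from 1.91 to 2.88 and from 1.89 to 2.39, so the groups overlapped.

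Col3a1, whose chain forms type III collagen and joins type I fibrils, ran from 206.2 through 389.5 to 824.9 CPM in untreated libraries. In treated libraries it ran from 86.3 to 187.6 CPM in 7 and stood at 621.8 CPM in UCMSC-Exos 9. Its difference was −1.04 ± 0.37 (log2, SE; edgeR adjusted p = 0.0541), and −1.56 ± 0.24 without that library (edgeR adjusted p = 0.000135). Per exon length the ratio of Col3a1 to Col1a1 was 0.94 ± 0.089 (SD) in untreated and 1.17 ± 0.16 (SD) in treated libraries. The untreated ratios ran from 0.755 to 1.04 and the treated ones from 0.945, in UCMSC-Exos 9, to 1.40, so the groups overlapped.

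Type V chains help to set the width of type I fibrils. Col5a2 had a median of 37.3 CPM in the untreated libraries, from 19.5 to 68.5 CPM, and 7.54 to 18.4 CPM in 7 treated libraries, with 51.2 CPM in UCMSC-Exos 9. It fell by 1.00 ± 0.33 (log2, SE; edgeR adjusted p = 0.0411), a call that was lost in 13 of the 17 fits without 1 library. Col5a1 ran from 23.5 to 68.7 CPM and from 17.1 to 22.3 CPM, with 59.0 CPM in UCMSC-Exos 9. Its difference was −0.72 ± 0.25 (edgeR adjusted p = 0.0508). Without UCMSC-Exos 9 Col5a2 fell by 1.42 ± 0.24 and Col5a1 by 1.05 ± 0.16. Col5a3 ran from 32.7 to 65.0 CPM in untreated and from 41.8 to 79.0 CPM in treated libraries, at 0.33 ± 0.14 (log2, SE; edgeR adjusted p = 0.108).

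Of the 9 fibrillar members tested, 2 passed the test, both lower, with a median log2 fold change of −0.72 over the 9. Without UCMSC-Exos 9 the 5 chains of types I, III and V other than Col5a3 passed, with a median of −1.05 over the 9. Over all genes tested 10.4% were lower with that library and 20.6% without it. Col27a1, a fibrillar chain best known from cartilage, had medians of 48.2 and 57.5 CPM and did not pass (0.31 ± 0.17, edgeR adjusted p = 0.192). Col11a2 and Col24a1 were low, with medians of at most 1.68 CPM in either group. With untreated 3 and 9 left out together, no fibrillar member passed the edgeR test as lower, although 5 had an unadjusted p under 0.05, and Col5a3 passed as higher. With UCMSC-Exos 9 left out as well, 5 passed as lower and Col11a2 and Col5a3 as higher.

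**Figure D1:**
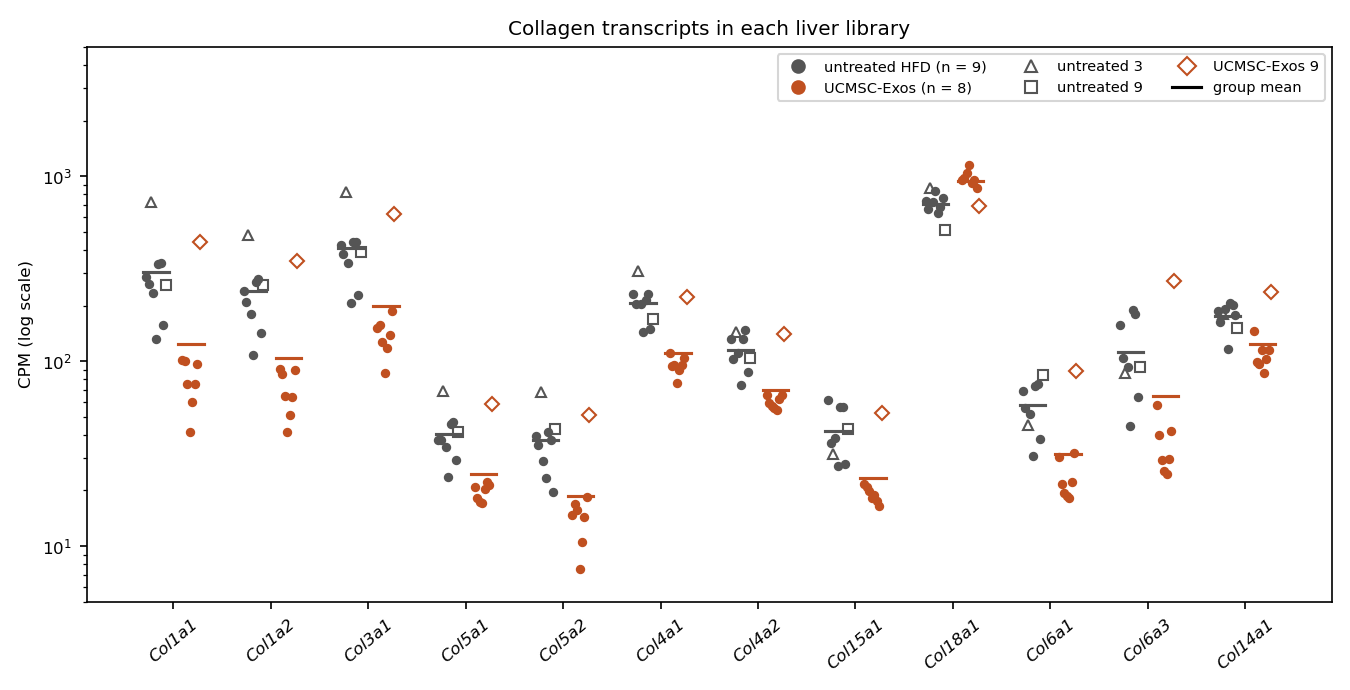
Levels of 12 collagen genes in each library, in CPM on a log axis. Filled circles are libraries (grey, untreated HFD, 9; orange, UCMSC-Exos, 8), open symbols are untreated 3, untreated 9 and UCMSC-Exos 9, and short lines are group means. For Col1a1 the 7 treated libraries other than UCMSC-Exos 9 lie between 41.3 and 101.9 CPM, under the lowest untreated library at 132.6 CPM, and for Col18a1 the same 7 lie above all untreated libraries.

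The type IV chains were the class in which every tested member had a fitted difference below 0. Col4a1 and Col4a2 form the basement membrane network found in nearly all tissues, and Col4a1 was the most abundant of the 6. It ran from 144.5 through a median of 203.3 to 308.6 CPM in untreated libraries. In treated libraries 7 values lay between 76.1 and 110.7 CPM and UCMSC-Exos 9 had 222.3 CPM. Col4a1 fell by 0.89 ± 0.19 (log2, SE; edgeR adjusted p = 0.00473), and by 1.12 ± 0.13 without that library. Col4a2 ran from 74.2 through 111.2 to 146.6 CPM in untreated libraries, and from 54.2 to 65.5 CPM in 7 treated ones with 140.3 CPM in UCMSC-Exos 9. Col4a2 fell by 0.71 ± 0.19 (edgeR adjusted p = 0.0144), and by 0.94 ± 0.12 without that library. Both chains passed as lower in all 28 fits that were made.

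The remaining type IV chains are the minor ones, with Col4a3, Col4a4 and Col4a5 best known from the kidney filter and Col4a6 from smooth muscle. Col4a5 ran from 3.72 through 7.74 to 18.2 CPM in untreated libraries. Treated libraries ran from 0.631 to 4.53 CPM except UCMSC-Exos 9, at 19.0 CPM the highest of all 17. Its difference was −1.08 ± 0.56 (log2, SE; edgeR adjusted p = 0.173), and without UCMSC-Exos 9 it fell by 2.04 ± 0.39 (edgeR adjusted p = 0.000758). Col4a3, Col4a4 and Col4a6 had untreated medians of 1.60, 2.51 and 1.45 CPM and were likewise highest in UCMSC-Exos 9. Their differences were −0.49, −0.85 and −0.68 with all libraries and −0.80, −1.64 and −1.78 without it. All 6 type IV chains passed as lower without UCMSC-Exos 9, with a median of −1.38 in place of −0.78. In that fit 20.6% of all genes tested were lower. Within the untreated group the minor chains also spread widely, with Col4a4 9.61 times as high in its highest library as in its lowest, against 2.14 times for Col4a1.

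Markers of bile duct cells were high and low in many of the same libraries as the type IV chains. The mean log2 deviation of the 6 type IV chains from the untreated mean was 0.75, 0.60 and 0.62 in untreated 1, 6 and 7 and −0.97 and −0.74 in untreated 5 and 8. For the 8 cholangiocyte markers it was 1.14, 0.96 and 0.97 in the first 3 and −0.93 and −0.73 in the other 2. The pattern was not particular to bile duct markers. For the 20 genes of TGF-beta signalling examined below it was 0.40, 0.36 and 0.21, and −0.40 and −0.48. Untreated 3 was an exception, at −0.80 for the cholangiocyte list and −0.02 for type IV. In UCMSC-Exos 9 the values were 0.93 for type IV and 1.09 for the cholangiocyte list. In the 7 other treated libraries they ran from −2.09 to −0.65 and from −2.01 to −0.90. Of the 8 cholangiocyte markers 1 passed the test, as lower, and 6 did without UCMSC-Exos 9. Over all genes tested 10.4% were lower and 9.73% higher, and 20.6% were lower without that library. The part of bile duct cells in the type IV result was not tested. The 13 endothelial markers stayed near the untreated level in sum, at 702.6 to 870.1 CPM in untreated and 610.0 to 917.4 CPM in treated libraries, and 1 of 13 passed, as higher. In whole tissue, fewer cells of a type and less RNA per cell cannot be told apart.

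**Figure D2:**
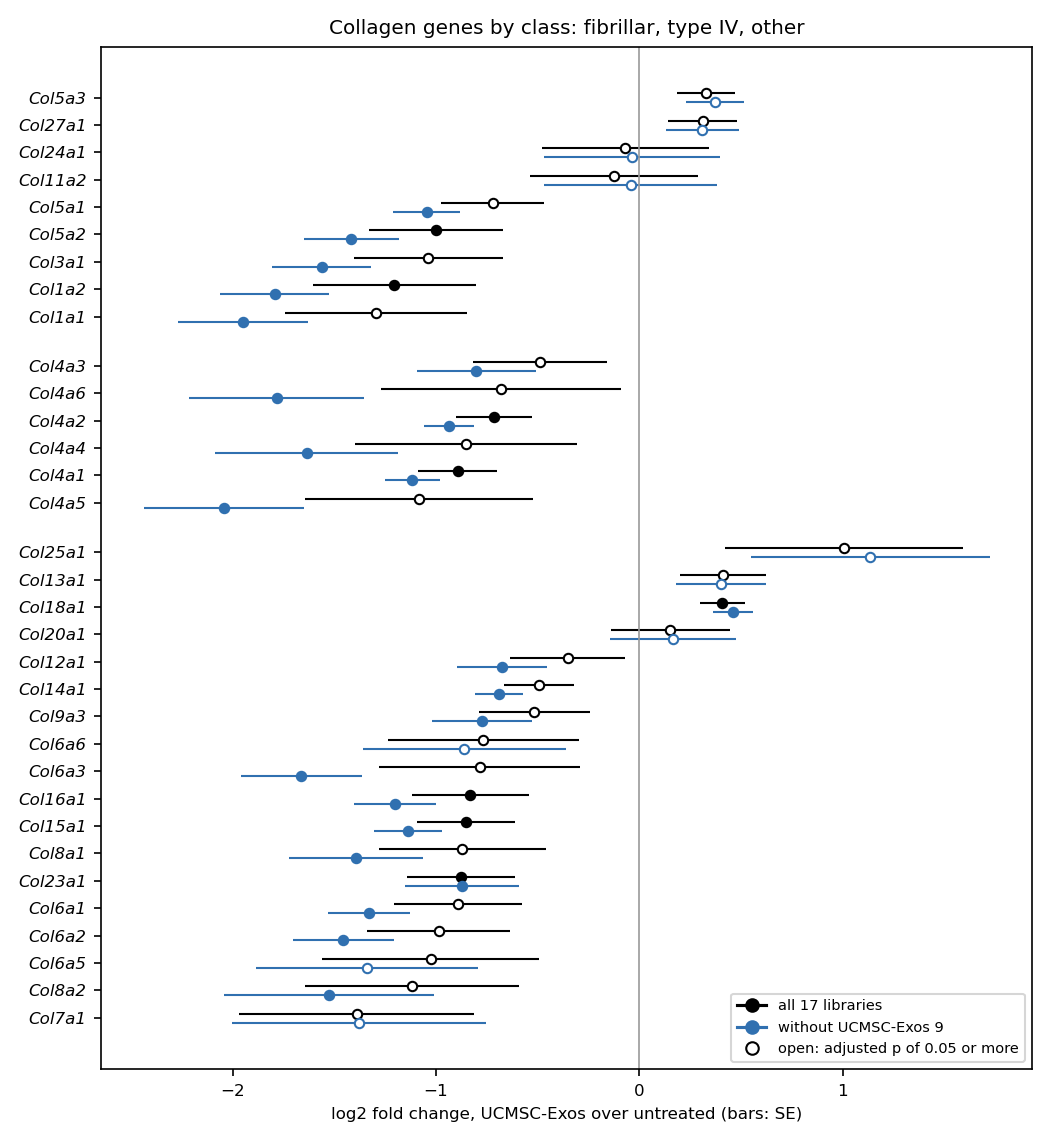
Log2 fold change of each of the 33 tested members, UCMSC-Exos over untreated HFD, with bars of 1 SE (horizontal axis), grouped as fibrillar, type IV and other collagens. Black is the fit with all 17 libraries and blue the fit without UCMSC-Exos 9; filled points have an adjusted p under 0.05. Without that library 22 members are filled on the lower side, against 7 with it, and Col18a1 is filled on the higher side in both.

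The multiplexins Col15a1 and Col18a1 are the closest pair by structure among the other collagens. Both lie in basement membrane zones and carry an end fragment that inhibits blood vessel growth. Col15a1 (ENSMUSG00000028339.17) ran from 27.0 through a median of 38.4 to 61.5 CPM in untreated libraries. Treated libraries ran from 16.5 to 21.8 CPM in 7 and stood at 52.4 CPM in UCMSC-Exos 9. Col15a1 fell by 0.85 ± 0.24 (log2, SE; edgeR adjusted p = 0.0206), and by 1.14 ± 0.17 without UCMSC-Exos 9. It passed in 27 of 28 fits, and missed the threshold with no filter on low counts.

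Col18a1 (ENSMUSG00000001435.15, chromosome 10, 77052178 to 77166548, minus strand) went the other way. Untreated libraries ran from 511.3 through a median of 729.4 to 864.1 CPM. The treated libraries other than UCMSC-Exos 9 ran from 869.3 to 1154 CPM, all above the highest untreated one, and UCMSC-Exos 9 had 692.0 CPM. Col18a1 rose by 0.41 ± 0.11 (log2, SE; edgeR adjusted p = 0.0154), and by 0.46 ± 0.098 without UCMSC-Exos 9. It passed as higher in all 28 fits. Hepatocyte markers moved in the same direction: 6 of 6 rose, and their mean log2 deviation was 0.62 to 0.95 in the 7 treated libraries other than UCMSC-Exos 9, and −0.06 in that library. Their part in the Col18a1 result was not tested. The gene has 2 annotated starts, and counts per gene do not tell which was used.

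Per exon length Col18a1 was the most abundant collagen transcript in this liver series, at 101.4 ± 15.2 RPKM (SD, n = 9) in untreated and 134.6 ± 19.0 RPKM (SD, n = 8) in treated libraries. RPKM here is reads per kilobase of exon per 1e6 reads of the scaled library. The next in the untreated group were Col1a1 at 46.3 ± 26.6, Col3a1 at 41.5 ± 18.2, Col4a1 at 27.6 ± 6.74, Col14a1 at 24.99 ± 4.01, Col1a2 at 19.4 ± 8.62 and Col4a2 at 17.4 ± 3.84 RPKM. After Col18a1, each of these lay within the spread of its neighbour in this order. In the treated group the order after Col18a1 was Col3a1 at 20.2 ± 17.7, Col1a1 at 18.9 ± 19.7, Col14a1 at 17.8 ± 6.94 and Col4a1 at 14.9 ± 6.18 RPKM, none of which differs from its neighbour beyond the spread.

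The make-up of the collagen transcripts also differed between the groups. Col18a1 made up a median of 29.0% of the summed collagen RPKM in untreated libraries, from 23.9% to 47.2%. In the treated libraries other than UCMSC-Exos 9 it made up from 50.8% to 66.1%, and in UCMSC-Exos 9 it made up 22.5%. The 7 treated libraries thus lay above every untreated one and UCMSC-Exos 9 below every one. Fibrillar chains made up a median of 36.1% in untreated and 20.7% in treated libraries, and type IV chains 14.2% and 9.43%. For type IV the 7 treated libraries, at 7.68% to 10.1%, lay below every untreated library, at 12.4% or more. Fibrillar chains were separated in the same way, at 23.8% or less in those 7 and 24.9% or more in every untreated library.

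**Figure D3:**
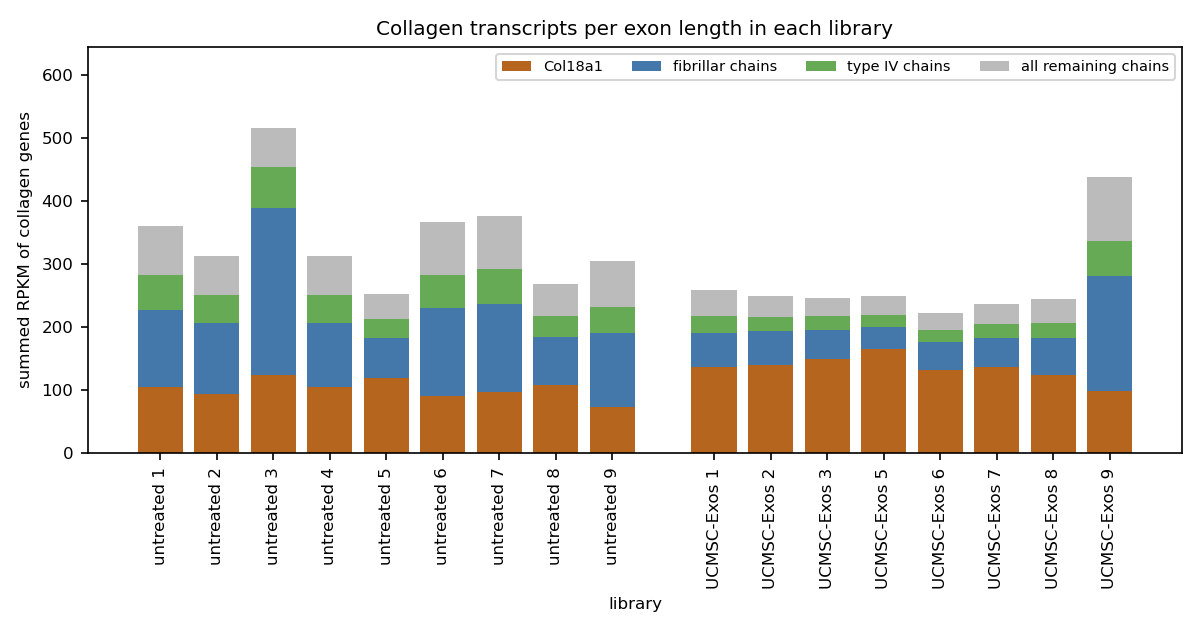
Summed RPKM of collagen genes in each library, stacked as Col18a1, the fibrillar chains, the type IV chains and all remaining chains. In 7 of the 8 treated libraries Col18a1 makes up 50.8% to 66.1% of the bar; the fibrillar chains make up more than Col18a1 in 6 of the 9 untreated libraries and, among the treated ones, in UCMSC-Exos 9.

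Type VI collagen forms beaded filaments near cell surfaces from 3 main chains. Col6a1 ran from 30.9 through 56.0 to 84.0 CPM in untreated libraries, and from 18.2 to 31.9 CPM in 7 treated ones with 88.2 CPM in UCMSC-Exos 9. Its difference was −0.89 ± 0.31 (log2, SE; edgeR adjusted p = 0.054). Col6a2 had medians of 40.3 and 16.2 CPM and a difference of −0.99 ± 0.35 (edgeR adjusted p = 0.0566). Col6a3 had 272.1 CPM in UCMSC-Exos 9, 24.7 to 57.8 CPM in the 7 other treated libraries and 44.6 to 189.3 CPM in the untreated ones. Its difference was −0.78 ± 0.49 (edgeR adjusted p = 0.266). Without UCMSC-Exos 9 all 3 main chains passed, as lower by 1.33, 1.46 and 1.66 on the log2 scale. Col6a5 and Col6a6, later additions to the type, were highest in untreated 9, at 10.8 and 8.56 CPM, and passed neither with nor without UCMSC-Exos 9.

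Collagens that sit on the surface of fibrils (FACITs) had 5 tested members. Col14a1, by far the most abundant, ran from 116.8 through 180.4 to 207.5 CPM in untreated libraries and from 86.4 to 145.6 CPM in 7 treated libraries, with 236.6 CPM in UCMSC-Exos 9. Its difference was −0.49 ± 0.17 (log2, SE; edgeR adjusted p = 0.0502). Col16a1 ran from 9.67 to 30.7 CPM and from 4.73 to 8.84 CPM, with 22.99 CPM in UCMSC-Exos 9. Col16a1 fell by 0.83 ± 0.29 (edgeR adjusted p = 0.0494), a call lost in 14 of the 17 fits without 1 library and under both other scalings. Col12a1 had medians of 7.70 and 5.69 CPM and did not pass. Without UCMSC-Exos 9, 4 of the 5 passed as lower, where 20.6% of all genes tested were lower. Col14a1 was then at −0.69 ± 0.12 and Col16a1 at −1.20 ± 0.20, Col20a1 being the exception at 0.17 ± 0.31.

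Among the transmembrane collagens the members differed in sign. Col23a1 had medians of 1.77 and 0.910 CPM, with 0.755 to 2.84 CPM in untreated and 0.535 to 1.31 CPM in treated libraries. It fell by 0.88 ± 0.27 (log2, SE; edgeR adjusted p = 0.0272) and lost the call without untreated 9, UCMSC-Exos 1 or UCMSC-Exos 3. It was the one lower member for which UCMSC-Exos 9, at 0.870 CPM, stood among the other treated libraries. Col13a1, with medians of 3.85 and 6.22 CPM, had a difference of 0.41 ± 0.21 (edgeR adjusted p = 0.166). Col25a1, with medians of 0.282 and 0.657 CPM, had a difference of 1.01 ± 0.58 (edgeR adjusted p = 0.223). The short-chain network chains Col8a1 and Col8a2, which form lattices under endothelium, were at −0.87 and −1.12 and did not pass, but did as lower without UCMSC-Exos 9. The anchoring fibril chain Col7a1 had a difference of −1.39 ± 0.58 (edgeR adjusted p = 0.0941), and 8.64 CPM in untreated 3 against at most 1.90 CPM in any other library.

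Over the 18 other collagens tested 3 passed as lower and 1 as higher, with a median of −0.81. Over all genes tested 10.4% were lower and 9.73% were higher. The medians of the 3 classes, −0.72, −0.78 and −0.81, lay close together with all libraries, and −1.05, −1.38 and −1.005 without UCMSC-Exos 9. Whether the classes differ in their response was not tested. Moving the 2 multiplexins to the basement membrane class makes its count of lower members 3 of 8.

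**Figure D4:**
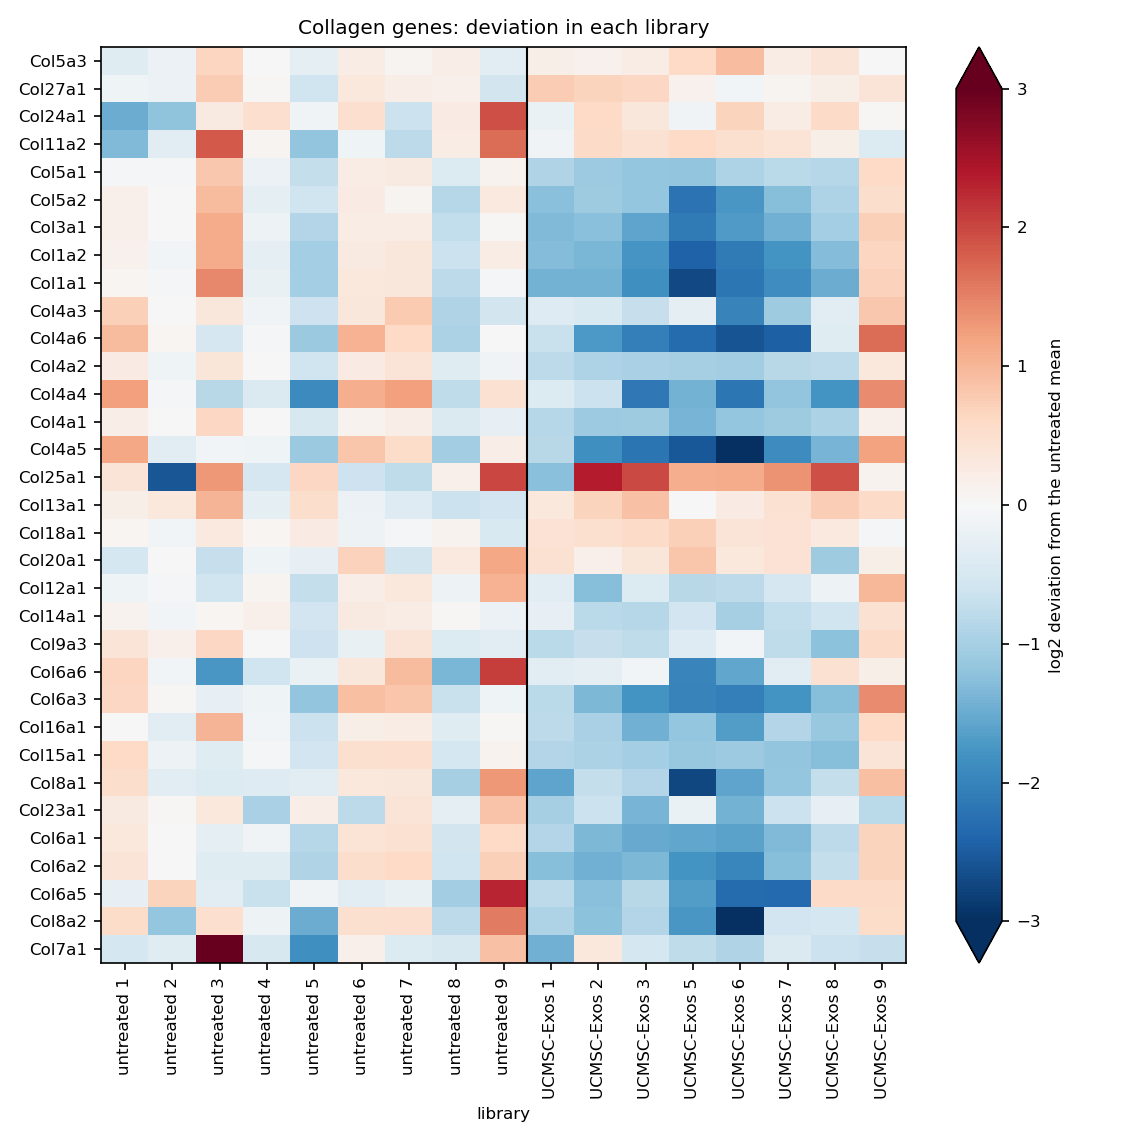
Log2 deviation of each tested member from its untreated mean (colour), by gene (rows, grouped as fibrillar, type IV and other) and library (columns, untreated left of the line). UCMSC-Exos 9 lies above the untreated median for 27 of 33 members and is the highest treated library for 22; the 7 other treated columns are mostly blue.

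Members for which the 7 treated libraries other than UCMSC-Exos 9 all lay below every untreated library numbered 9 of 33, against 4.38% of all 16238 genes tested. UCMSC-Exos 9 was set aside here after its collagen values were seen. The 9 members were Col1a1, Col1a2, Col3a1, Col5a1, Col5a2, Col4a1, Col4a2, Col15a1 and Col16a1. Col18a1 was the 1 member for which those 7 all lay above, against 3.88% of all genes. With all 8 treated libraries, the groups overlapped for every member. Leaving out untreated 3 and 9 and UCMSC-Exos 9 together gave 20 lower and 5 higher members, where 22.3% of all genes were lower and 19.6% were higher, the higher members being Col11a2, Col13a1, Col18a1, Col25a1 and Col5a3. Leaving out only untreated 3 and 9 gave 3 lower (Col4a1, Col4a2 and Col15a1) and 4 higher, where 9.74% of all genes were lower and 10.9% were higher. The number of calls thus changed with the 3 libraries that stand apart. The calls of Col1a2, Col5a2 and Col16a1 were also lost on leaving out single libraries other than those 3. They were lost in 14, 13 and 14 of the 17 fits without 1 library. The calls of Col4a1, Col4a2, Col15a1 and Col18a1 were made in each of these fits.

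The 11 untested members had between 1 and 229 reads over the 17 libraries: Col2a1, Col6a4, Col9a1, Col9a2, Col10a1, Col11a1, Col17a1, Col19a1, Col22a1, Col26a1 and Col28a1. Several of them are cartilage collagens. Col22a1, a chain of muscle and tendon junctions, had 191 of its 229 reads in untreated 9, and Col11a1 had 42 of its 54 reads there. That is the library with the skeletal muscle markers. Col19a1 had 1 read, in a treated library; a count of 0 over the untreated group allows up to 0.00909 CPM, counting error only.

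Most chains that share a trimer or a fibril varied together across libraries within each group. In the treated group Col5a1 and Col5a2 were an exception. The relation of Col6a1 and Col6a2 there no longer passed without the 2 libraries farthest from the median. Pairs of collagens that share neither were not computed, so whether partners vary together more than other members was not tested. In the 10 relations computed (5 pairs in 2 groups, log2 CPM, exact permutation tests over pairings, two-sided, adjusted by Benjamini-Hochberg), Pearson's r was at least 0.876. For Col1a1 and Col1a2, r was 0.978 in untreated (n = 9, exact permutation p = 2.48e-05, adjusted 8.27e-05; Spearman's rho 0.95, p = 0.000353) and 0.997 in treated libraries (n = 8, exact permutation p = 0.000124, adjusted 0.00031; rho 0.976, p = 0.000397). Without the 2 libraries farthest from the median of Col1a1, r was 0.941 and 0.993. For Col4a1 and Col4a2, r was 0.902 in untreated (n = 9, exact permutation p = 0.000774, adjusted 0.00111; rho 0.867, p = 0.00451) and 0.977 in treated libraries (n = 8, exact permutation p = 0.00131, adjusted 0.00153; rho 0.952, p = 0.00114). It was 0.898 and 0.881 without the 2 libraries.

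For Col1a1 and Col3a1, r was 0.993 in untreated (n = 9, exact permutation p = 1.1e-05, adjusted 5.51e-05; rho 0.967, p = 0.000165) and 0.989 in treated libraries (n = 8, exact permutation p = 0.000298, adjusted 0.000496; rho 0.881, p = 0.00724). It was 0.978 and 0.847 without the 2 libraries. For Col6a1 and Col6a2, r was 0.986 in untreated (n = 9, exact permutation p = 5.51e-06, adjusted 5.51e-05; rho 0.983, p = 4.96e-05) and 0.969 in treated libraries (n = 8, exact permutation p = 0.000248, adjusted 0.000496; rho 0.952, p = 0.00114). In the treated group it was 0.696 without the 2 libraries (exact permutation p = 0.1, adjusted 0.111), and in the untreated group 0.977. For Col5a1 and Col5a2, r was 0.919 in untreated (n = 9, exact permutation p = 0.00138, adjusted 0.00153; rho 0.833, p = 0.00827), and 0.863 without the 2 libraries. In treated libraries r was 0.876 (n = 8, exact permutation p = 0.0242, adjusted 0.0242), but rho was 0.524 (p = 0.197) and r was −0.15 without UCMSC-Exos 5 and 9, so the relation rested on those 2. Each pair shares the libraries and their scaling, which also links their values.

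The genes that build, trim, anchor, sense and degrade collagen were examined by 7 lists. Over all genes tested 10.4% were lower and 9.73% were higher, and the counts below are to be read beside these shares. Of 19 tested genes of collagen modification and folding 6 fell and 2 rose, with a median log2 fold change of −0.17. Serpinh1, the collagen chaperone HSP47, had 41.6 to 84.1 CPM in untreated libraries, 25.8 to 33.9 CPM in 7 treated ones and 87.7 CPM in UCMSC-Exos 9. It fell by 0.83 ± 0.23 (edgeR adjusted p = 0.0212). Crtap, a partner of a prolyl hydroxylase, fell by 0.64 ± 0.18, a call lost without UCMSC-Exos 2. Mia3, which helps to load procollagen into transport carriers, rose by 0.39 ± 0.084 and Ppib, a proline isomerase of the endoplasmic reticulum, by 0.44 ± 0.11. The main prolyl hydroxylase subunits P4ha1, P4ha2 and P4hb were at 0.00, 0.03 and 0.04 and did not pass.

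Of 12 genes of procollagen processing and cross-linking 2 fell and 1 rose, where 10.4% of all genes tested fell and 9.73% rose. Bmp1, the proteinase that removes the carboxyl end of fibrillar procollagens, rose by 0.47 ± 0.082 (edgeR adjusted p = 0.000939). Its enhancer Pcolce fell by 0.60 ± 0.18, a call lost in 6 of 17 fits without 1 library. The cross-linking oxidase Loxl3 fell by 0.80 ± 0.23, a call lost without UCMSC-Exos 3, and Lox was at −0.74 (edgeR adjusted p = 0.12). Of 15 genes of collagen breakdown and its inhibitors 3 fell and 2 rose. Mmp13, the main interstitial collagenase of mice, had the largest change among the named list genes, with 9.09 to 19.7 CPM in untreated libraries, 1.52 to 5.14 CPM in 7 treated ones and 7.59 CPM in UCMSC-Exos 9. It fell by 2.08 ± 0.29 (edgeR adjusted p = 0.000138), and all 8 treated values lay below every untreated value. Mmp14, a membrane-bound collagenase, fell by 0.64 ± 0.18, the proteinase inhibitor Timp1 fell by 1.04 ± 0.34 and Mmp19 rose by 0.47 ± 0.14. The Timp1 call was lost in 11 and the Mmp19 call in 8 of 17 fits without 1 library.

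Of 8 collagen receptors 2 fell and 1 rose, where 10.4% of all genes tested fell and 9.73% rose. Lair1, an inhibitory receptor of immune cells, fell by 0.70 ± 0.13 and the receptor kinase Ddr2 by 0.69 ± 0.21, while the integrin chain Itga10 rose by 0.68 ± 0.18 (edgeR adjusted p = 0.00182, 0.0261 and 0.015). The Ddr2 call was lost in 4 of 17 fits without 1 library. Of 16 partners of type IV in basement membranes 6 fell and 1 rose. Agrn, Lamc1 and Hspg2, which encode agrin, the laminin gamma-1 chain and perlecan, fell by 0.76 ± 0.16, 0.65 ± 0.15 and 0.60 ± 0.17. The laminin chain Lama3 rose by 1.35 ± 0.23 (edgeR adjusted p = 0.000792), from a median of 2.77 to 7.94 CPM, with 2.73 CPM in UCMSC-Exos 9. Of 18 fibril-associated matrix proteins 5 passed, as lower. Emilin1, decorin (Dcn), versican (Vcan) and Prelp were among them, at −0.76, −0.68, −1.02 and −0.69. Leaving out 1 library lost the calls of Dcn and Vcan in 10 and that of Prelp in 13 of 17 fits.

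Of 20 genes of TGF-beta signalling, the pathway best known for inducing fibrillar collagens, 5 passed, as lower, and all 20 had a fitted difference below 0. Among all 16238 genes tested 8649 had a difference below 0. The receptor Tgfbr2 fell by 0.49 ± 0.10, the inhibitory Smad7 by 0.44 ± 0.12, the matrix protein Ccn2 by 1.02 ± 0.25 and the latent TGF-beta binding protein Ltbp1 by 1.19 ± 0.32 (edgeR adjusted p = 0.00365, 0.0141, 0.0095 and 0.0167). Without UCMSC-Exos 9 the numbers of lower genes in the 7 lists, in the order given, were 8, 7, 9, 6, 14, 15 and 16. The numbers tested were 19, 12, 15, 8, 16, 18 and 20. In that fit 20.6% of all genes tested were lower, against 10.4% with all libraries. All 26 list genes named by rule passed without UCMSC-Exos 9, in the same direction and with larger log2 changes. Only Timp1 moved by over 1.5 times, to −1.61. In that library the lists lay above the untreated mean by 0.12 to 0.70, and in the 7 other treated libraries below it by 0.24 to 1.67.

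**Figure D5:**
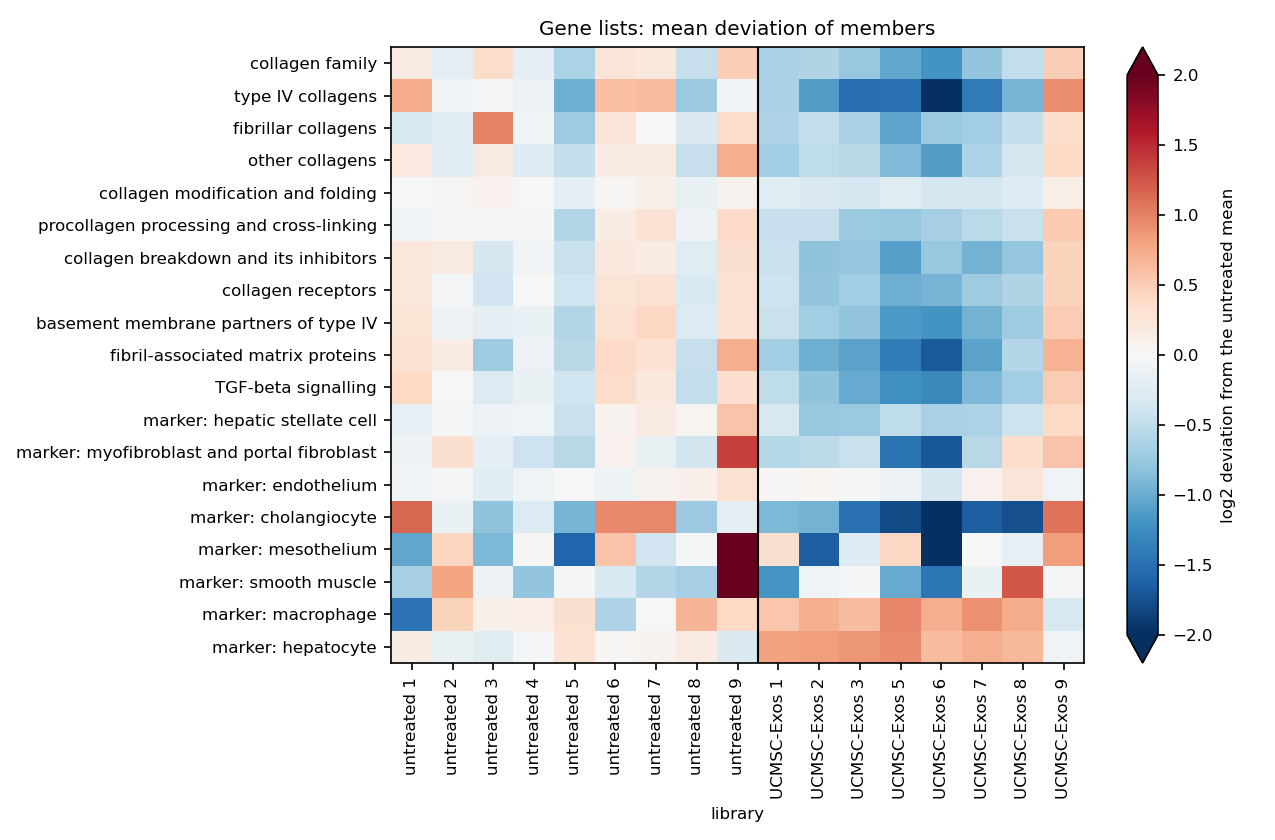
Mean log2 deviation from the untreated mean (colour) of the tested members of each list (rows) in each library (columns, untreated left of the line); the skeletal muscle list is left out. Collagen classes, the 7 lists of collagen-related genes and the cholangiocyte list are below 0 in the treated libraries other than UCMSC-Exos 9 and above 0 in it, while the hepatocyte list is above 0 in those 7.

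Markers of the cells that make fibrillar collagen mostly had fitted differences below 0, though few passed. Below 0 were 9 of 10 stellate cell markers (median −0.40) and 7 of 10 tested myofibroblast and portal fibroblast markers (median −0.60). Among all 16238 genes tested 8649 were below 0. The mean log2 deviation of the stellate list was −0.76 to −0.33 in the 7 treated libraries other than UCMSC-Exos 9. It was 0.39 in that library. For the myofibroblast and portal fibroblast list these values were −1.69 to 0.36 and 0.57. Of 10 stellate cell markers 2 passed, as lower, and 6 did without UCMSC-Exos 9. Over all genes tested 10.4% were lower and 9.73% higher, and 20.6% were lower without that library. The 2 stellate markers that passed were Colec11 at −0.60 ± 0.12 and Des at −3.46 ± 1.11, the latter with 681.3 CPM in untreated 9. Lrat, the vitamin A storage enzyme of resting stellate cells, was the 1 of the 10 above 0, at 0.17 ± 0.15 (edgeR adjusted p = 0.444). Its medians were 31.1 and 31.3 CPM. Pdgfrb was at −0.87 ± 0.32 (edgeR adjusted p = 0.0609), with 14.1 to 26.4 CPM in 7 treated libraries and 69.2 CPM in UCMSC-Exos 9. Of the 10 tested markers of myofibroblasts and portal fibroblasts, the smallest edgeR adjusted p with all libraries was 0.0528 (Thy1, at 0.69), and 4 passed as lower without UCMSC-Exos 9 (Pdgfra, Eln, Dpt and Mfap4). Acta2, the smooth muscle actin of activated cells, was at 0.25 ± 0.50 (edgeR adjusted p = 0.749). The sums of the stellate list ran from 347.1 to 1218 CPM in untreated and from 331.3 to 616.3 CPM in treated libraries. The part of cell number in the collagen results was not tested. Of the 6 macrophage markers 1 passed, as higher, of the 5 smooth muscle markers tested 1 passed, as lower, and both skeletal muscle markers tested (Mylpf and Tnni2) passed, as lower. Untreated 9 had 417.3 CPM of Mylpf and 695.1 CPM of Tnni2, against untreated medians of 0.749 and 0.358 CPM. The smooth muscle marker that passed, Synpo2, reached 161.2 CPM in the untreated group. Its medians were 4.29 CPM in untreated and 1.37 CPM in treated libraries, and all 8 treated libraries lay below the untreated median. Whether these calls hold without untreated 9 was not tested. The 6 mesothelium markers had a median of −0.85 and passed in neither direction, as did the 1 adipocyte and the 1 intestinal marker tested.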

How the data were processed

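Liver RNA-seq of 17 libraries was used, and 9 LSCR samples were not analysed here. The deposited values are raw counts of reads per gene made by the authors with featureCounts 2.1.1 on mm10 with GENCODE M25 exons, in paired mode, unstranded and without multi-mapped reads, per the file headers; both mates were counted. fastp 1.3.3, HISAT2 2.2.1 and Subread 2.0.2 are named in the submitters' processing notes. Of the per-sample columns, 1 could not be matched to a sample and was not used. The authors' exon lengths, in bases, came with the counts, per the file headers.

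Here edgeR 4.0.16 (R 4.3.3) fitted robust quasi-likelihood models to the 17 libraries after TMM scaling and filterByExpr (minimum count 10), with Benjamini-Hochberg adjustment over all genes tested. The p-values measure the spread between these libraries. Log2 CPM used a prior count of 2, and RPKM was computed from CPM and exon length. A count of 3 in 1 library equals 0.0705 to 0.103 CPM, which covers counting error only. Alternatives used limma 3.58.1, DESeq2 1.42.0 and sva 3.50.0, other scalings and filters, and fits without single libraries. The test was checked on simulated data.

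The collagen members, the 7 lists of related genes, the 12 marker lists and the rule for named genes were chosen with earlier results of these data known. That rule takes every called member, the up to 3 members of each class or subclass with the highest mean RPKM, and the up to 4 called genes of smallest p in each list. Other genes given with values were chosen after their values were seen.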

Additional observations from a re-analysis of the deposited data

Results flagged for a closer look

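In 34 of 66 sets of values (33 tested collagen genes in 2 groups, 51.5%), 1 library lay far from the others, as judged by its gap to the nearest library relative to the group's range (Dixon's 95% limit). Chance flags about 1 in 20 such sets, and the genes share libraries.

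UCMSC-Exos 9 was far above the other treated libraries for 20 genes. Among the fibrillar chains it had 440.0 CPM of Col1a1, 348.7 CPM of Col1a2, 621.8 CPM of Col3a1, 59.0 CPM of Col5a1 and 51.2 CPM of Col5a2. It stood as far apart for all 6 type IV chains, with 222.3 CPM of Col4a1, 140.3 CPM of Col4a2, 2.82 CPM of Col4a3, 7.05 CPM of Col4a4, 19.0 CPM of Col4a5 and 4.80 CPM of Col4a6. The type VI chains Col6a1, Col6a2 and Col6a3 had 88.2, 63.9 and 272.1 CPM there. The remaining 6 were Col15a1 at 52.4 CPM, Col12a1 at 15.6 CPM, Col14a1 at 236.6 CPM, Col16a1 at 22.99 CPM, Col8a1 at 8.44 CPM and Col8a2 at 1.65 CPM.

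Untreated 3, the library with exocrine pancreas markers, was far above the other untreated libraries for 7 genes. They were Col1a1 at 730.2 CPM, Col1a2 at 480.2 CPM, Col3a1 at 824.9 CPM, Col5a2 at 68.5 CPM, Col5a3 at 64.96 CPM, Col16a1 at 30.7 CPM and Col7a1 at 8.64 CPM. Untreated 9, the library with skeletal muscle markers, was so for 6 genes, with Col24a1 at 1.78 CPM, Col6a5 at 10.8 CPM, Col6a6 at 8.56 CPM, Col12a1 at 16.2 CPM, Col8a1 at 11.1 CPM and Col8a2 at 3.34 CPM. UCMSC-Exos 2 was so for Col7a1, at 1.246 CPM.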

How the results depend on the processing

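Of the 7 lower and 1 higher collagen genes, with 2 fibrillar, 2 type IV and 3 other chains lower, these numbers changed as follows. Without a filter on low counts 3 were lower (0 fibrillar, 1 other), where 3.39% of all 31311 genes tested were lower. With at least 1 CPM in 8 libraries 12 were (5 fibrillar, 5 other), where 12.2% of all genes were. DESeq2, which called 12.7% of all genes lower, gave 13 (5 fibrillar, 6 other) and limma voom with quality weights 21 (5 fibrillar, 6 type IV, 10 other) with 6 higher, where 25.5% of all genes were lower and 22.03% higher. With surrogate variables 5 members were lower, where 5.27% of all genes were, and Col6a1 and Col6a2 were among the 5. By edgeR 0 fibrillar chains were lower in that fit, 4 at an unadjusted p under 0.05. The median of the family moved from −0.78 to −0.15. Excluding untreated 3 and 9 gave 3 lower (0 fibrillar, 1 other) and 4 higher. Excluding UCMSC-Exos 9 as well, an alternative added after seeing the data, gave 20 lower (5 fibrillar, 6 type IV, 9 other) and 5 higher. Leaving out 1 library gave 3 to 22 lower (fibrillar 0 to 5, type IV 2 to 6, other 1 to 11) and 1 to 4 higher; the highest numbers of lower genes came without UCMSC-Exos 9 (22), untreated 5 (13) and untreated 8 (12), the other 14 such fits gave 3 to 5, and 4 were higher without untreated 3. In the fits without 1 library 5.65% to 20.6% of all genes were lower, the highest share being without UCMSC-Exos 9. At 0 fibrillar calls without a filter, without untreated 3 and 9, or without 1 library, 5 had an unadjusted p under 0.05. In the UCMSC-Exos group the Col5a1 to Col5a2 relation had a rho of 0.52 and, without 2 libraries, an r of −0.15, and that of Col6a1 to Col6a2 an r of 0.70. The causes were not tested.

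Same-numbered libraries of the 2 groups share only a number: their deviations correlated at −0.17 to 0.24, and 1 of 8 correlated best with its own number. A fit with the number as a replicate block gave 14 lower (5 fibrillar, 6 other) and 1 higher. In that fit 10.5% of all genes were lower and 8.15% were higher.

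No fit reversed the direction of a called gene that is named. For the 11 untested genes no difference was detectable at this depth.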
